A study of Mus musculus with 15 samples.

Results

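Gm4956, Atp6v0d2, Ttn, Gas7 and Tmem273 are 5 of the 48795 genes quantified in invariant natural killer T (iNKT) cells sorted from 4 mouse tissues. They were chosen by their large decreases against spleen, with Gm4956, Atp6v0d2 and Ttn picked on thymus against spleen and Gas7 and Tmem273 picked on the inguinal lymph node (iLN) against spleen. Those 2 contrasts are therefore given below as descriptions without a test. The tests are of mLN (mesenteric lymph node) against iLN for the 3 genes picked in thymus, and of mLN against thymus for the 2 genes picked in iLN, since neither set of samples entered the contrast that picked the gene. These tests are not fully independent of the choice. They use the same fit as the samples that picked the genes, and the genes were chosen with earlier results of these data known. All 5 genes passed the filter on low counts, as did 13600 genes in total.

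The cells came from wild-type C57BL/6 mice aged 6 weeks, with 4 samples of each of thymus, spleen and mLN and 3 samples of iLN, of which replicate 1 was not analysed here. Each sample was sorted as cells that bound the CD1d tetramer and carried TCR-b, the T cell receptor beta chain, and were negative for CD8, B220, CD11c and CD11b. Replicates 1 and 2 carry the batch label Second and replicates 3 and 4 the label First. The lymph nodes were digested with enzymes before sorting and the spleen and thymus were only mashed, so tissue and preparation cannot be told apart in a comparison of lymph node with spleen or thymus, whereas mLN and iLN were prepared alike.

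Invariant NKT cells are T cells with a restricted T cell receptor that recognise lipids on CD1d, mature in the thymus and settle in peripheral organs, where they release cytokines rapidly. The 5 genes belong to unrelated families. Atp6v0d2 encodes the d2 subunit of the vacuolar H+-ATPase (V-ATPase), the proton pump that acidifies endosomes and lysosomes, and is best known in osteoclasts and macrophages. Ttn encodes titin, the giant elastic protein of the muscle sarcomere. Gas7, growth arrest-specific 7, encodes an F-BAR domain protein of the kind that bends membranes and links them to actin, studied mainly in neurons. Tmem273 encodes a small transmembrane protein, and Gm4956 is annotated as a transcribed pseudogene.

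Total counts per sample ran from 1152702, in thymus replicate 2, to 8670570. A count of 3, taken as the floor of detection, was worth 2.21 CPM (counts scaled to library size after edgeR's TMM normalization) in thymus replicate 2 and between 0.296 and 0.827 CPM in the other 14 samples. All 12 listed markers of iNKT cells or of T cells in general, such as Zbtb16 and Cd3e, were detected in every tissue. Their summed levels were 3412 to 5086 CPM, and some of them differed between the tissues, as given below. Markers of other cells were detected too, with counts in at least 1 sample for 19 of 20 macrophage, 7 of 10 osteoclast and 6 of 12 lymph node stroma markers. The others, Fcgr1 of the macrophage list, Calcr, Dcstamp and Oscar of the osteoclast list and 6 stroma markers, were at 0 in all samples. In bulk samples, fewer cells that make an RNA and less RNA per cell cannot be told apart.

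The genomic positions are those of GRCm38. Gm4956 (ENSMUSG00000025936) lies at chr1:21285246-21298312 on the minus strand, Atp6v0d2 (ENSMUSG00000028238) at chr4:19876841-19922605 on the minus strand, Ttn (ENSMUSG00000051747) at chr2:76703980-76982547 on the minus strand, Gas7 (ENSMUSG00000033066) at chr11:67455437-67688990 on the plus strand and Tmem273 (ENSMUSG00000041707) at chr14:32785963-32817984 on the plus strand. No pair of them shares a chromosome. Promoter sequences from RefSeq on GRCm38.p6 were found for 2 of the 5 genes, Ttn (chr2:76982498-76982797, minus strand) and Tmem273 (chr14:32785713-32786012, plus strand). They are shown because these genes differ in lymph node, where Tmem273 was abundant in mLN and near 0 in iLN, and Ttn was intermediate in both. Each run goes 5′ to 3′ along the gene, from 250 bases before the transcription start, and capitals mark AGGAAG on either strand, the core of many ETS factor sites.

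Tmem273: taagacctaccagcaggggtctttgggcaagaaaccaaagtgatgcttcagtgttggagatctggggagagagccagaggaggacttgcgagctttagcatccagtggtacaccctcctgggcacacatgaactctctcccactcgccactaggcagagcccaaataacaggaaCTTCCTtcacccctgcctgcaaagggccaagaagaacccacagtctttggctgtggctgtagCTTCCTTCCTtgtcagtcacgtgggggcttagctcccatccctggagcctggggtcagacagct
Ttn: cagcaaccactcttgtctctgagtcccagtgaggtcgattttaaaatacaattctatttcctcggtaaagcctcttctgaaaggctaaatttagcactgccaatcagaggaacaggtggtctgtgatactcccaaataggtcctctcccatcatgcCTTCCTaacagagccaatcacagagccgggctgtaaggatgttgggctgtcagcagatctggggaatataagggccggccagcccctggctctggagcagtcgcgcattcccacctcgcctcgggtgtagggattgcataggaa

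The Tmem273 promoter held AGGAAG 3 times, of which 2 overlap, and the Ttn promoter held it 1 time. Of 32544 distinct mouse promoters of this length, 35.1% held it. The letters AGGTGTGA (T-box factors, 1.28% of promoters), TGTGGT (RUNX factors, 16.7%), TGACTCA (AP-1, 5.19%) and GGGCGG (the GC box, 35.9%), searched on both strands, were in neither window. These are matches of letters and not measured binding.

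Gm4956 was abundant in spleen and mLN, low in iLN and at or near 0 in thymus. In thymus its level was 0.494 CPM in replicate 1, from 4 counts, and 0 in replicates 2 to 4. In spleen it was 34.9, 56.4, 51.3 and 73.4 CPM in replicates 1 to 4. In mLN it was 34.8, 60.1, 14.1 and 36.8 CPM, and in iLN replicates 2 to 4 it was 1.61, 4.06 and 8.72 CPM. The spleen and mLN samples overlapped, every mLN sample lay above every iLN sample, and every iLN sample lay above every thymus sample. The 0 of thymus replicate 2 cannot be ranked below the 1.61 CPM of iLN replicate 2, since its floor of detection was 2.21 CPM. Mean TPM, which is scaled for transcript length, was 81.7 ± 25.4 in spleen (SD, n = 4), 58.4 ± 31.9 in mLN (n = 4), 7.66 ± 6.67 in iLN (n = 3) and 0.165 ± 0.33 in thymus (n = 4).

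The fitted log2 fold change of Gm4956 in thymus against spleen, the contrast that picked the gene, was -7.89 (SE 0.78), and with the counts pooled the spleen level was 231 times that of thymus (95% exact interval 90.2 to 850, for counting error only). Without thymus replicate 1, which held all 4 counts, the fitted value was -11.24 and depends on the prior count of the fit. Against spleen it was -0.56 (SE 0.48) in mLN and -3.48 (SE 0.61) in iLN. In the test of iLN against mLN the log2 fold change was -2.92 (SE 0.62), a pooled ratio of 7.71 in favour of mLN (95% interval 6.09 to 9.88). The adjusted p was 0.0204 by edgeR's quasi-likelihood test with Benjamini-Hochberg adjustment, which missed the threshold of 0.01, and 64 of 13600 genes, 0.471%, were called in this comparison (adjusted p under 0.01 and a fold change over 1.5). Without mLN replicate 3, the lowest mLN sample, the log2 fold change was -3.36 with an adjusted p of 0.00942, past the threshold, and without iLN replicate 2 it was -2.27 with an adjusted p of 0.102. Over all 14 alternatives the adjusted p ran from 1.49e-07 with no filter to 0.199 with the 2 tissues alone.

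Atp6v0d2 was highest in mLN, intermediate in spleen, low and uneven in iLN and near 0 in thymus. In thymus replicates 1 to 4 it was 0, 0, 0.551 and 0.379 CPM, from 4 counts in all. In spleen it was 15.9, 11.0, 19.2 and 14.4 CPM. In mLN it was 49.7, 48.8, 40.6 and 27.5 CPM. In iLN it was 1.97, 0 and 9.07 CPM, so that replicate 4 held 53 of the 64 iLN counts. No mLN sample overlapped spleen and no spleen sample overlapped iLN, while iLN and thymus overlapped at 0.

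Against spleen, the fitted log2 fold change of Atp6v0d2 was -5.94 (SE 0.94) in thymus, 1.51 (SE 0.62) in mLN and -2.06 (SE 0.74) in iLN. Without iLN replicate 4 the iLN value was -3.83. The pooled spleen level was 68.2 times that of thymus (95% interval 26.4 to 252). In iLN against mLN the log2 fold change was -3.57 (SE 0.78), with a pooled mLN level 10.1 times that of iLN (7.88 to 13.3). The edgeR adjusted p was 0.0266, not past the threshold. Without iLN replicate 4 the log2 fold change was -5.26 and the adjusted p 0.00327, past the threshold, and without iLN replicate 2 they were -3.19 and 0.115. Over all 14 alternatives the adjusted p ran from 1.06e-07 with no filter to 0.228 with the 2 tissues alone.

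The V-ATPase has a second d subunit gene, Atp6v0d1, which is expressed in most cells. Its TPM was 21.0 ± 5.58 in thymus, 32.5 ± 6.75 in spleen, 34.8 ± 12.3 in mLN (SD, n = 4 each) and 29.8 ± 11.4 in iLN (n = 3), with the thymus samples, up to 24.4, just below the spleen samples, from 25.4 up, and overlapping both lymph nodes. In thymus against spleen its log2 fold change was -0.69 (SE 0.31, edgeR adjusted p = 0.406). On the TPM scale, d2 made up 40.9% ± 12.9 of both d subunit transcripts in mLN, 19.8% ± 2.47 in spleen, 7.61% ± 11.0 in iLN and 0.428% ± 0.498 in thymus. The share reached 53.3% in one mLN sample, and in no thymus sample did it exceed 0.933%.

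**Figure D1:**
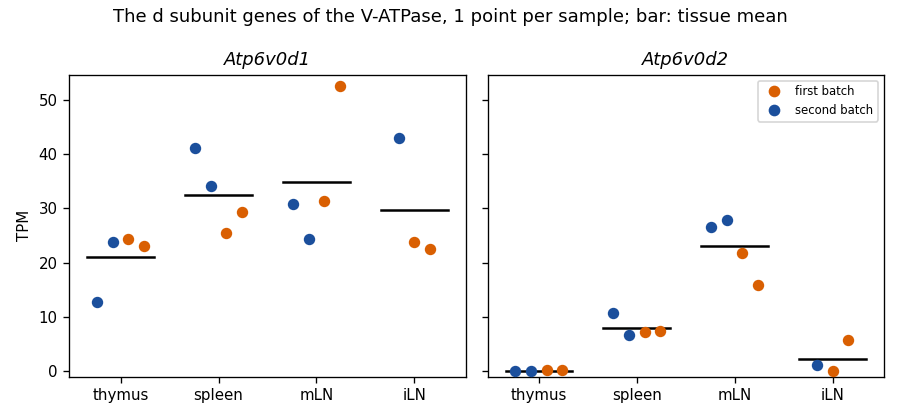
TPM of Atp6v0d1 and Atp6v0d2 in each sample by tissue, with points coloured by batch and a bar at the tissue mean. Atp6v0d1 lies between 12.7 and 52.6 TPM in all samples, whereas Atp6v0d2 ranges from 0 in thymus and iLN samples to 27.8 in an mLN sample.

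Ttn was highest in spleen, lower in both lymph nodes and near 0 in thymus. In spleen it was 55.7, 80.7, 65.5 and 49.4 CPM in replicates 1 to 4, and in thymus 0.864, 0, 0.551 and 1.90 CPM, from 19 counts in all. In mLN it was 19.1, 17.4, 15.2 and 6.55 CPM, and in iLN replicates 2 to 4 it was 32.1, 27.4 and 10.4 CPM. Spleen lay above iLN and mLN above thymus in every sample, while iLN and mLN overlapped. Titin transcripts are very long, with a median effective length of 81648 bases here, so the spleen level was only 0.998 ± 0.322 TPM (SD, n = 4), against 0.228 ± 0.0826 in mLN (n = 4) and 0.357 ± 0.181 in iLN (n = 3).

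Against spleen, the fitted log2 fold change of Ttn was -5.91 (SE 0.54) in thymus, -2.14 (SE 0.41) in mLN and -1.40 (SE 0.44) in iLN. By limma on log2(TPM + 0.1) the thymus value was smaller, at -3.25. The pooled spleen level was 60.4 times that of thymus (95% interval 38.6 to 100.6). The test of iLN against mLN gave 0.73 (SE 0.43), with an edgeR adjusted p of 0.479, so no difference between the lymph nodes was resolved. Unlike Gm4956 and Atp6v0d2, Ttn had its lowest iLN value in replicate 4, the sample in which those 2 genes were highest among iLN samples.

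**Figure D2:**
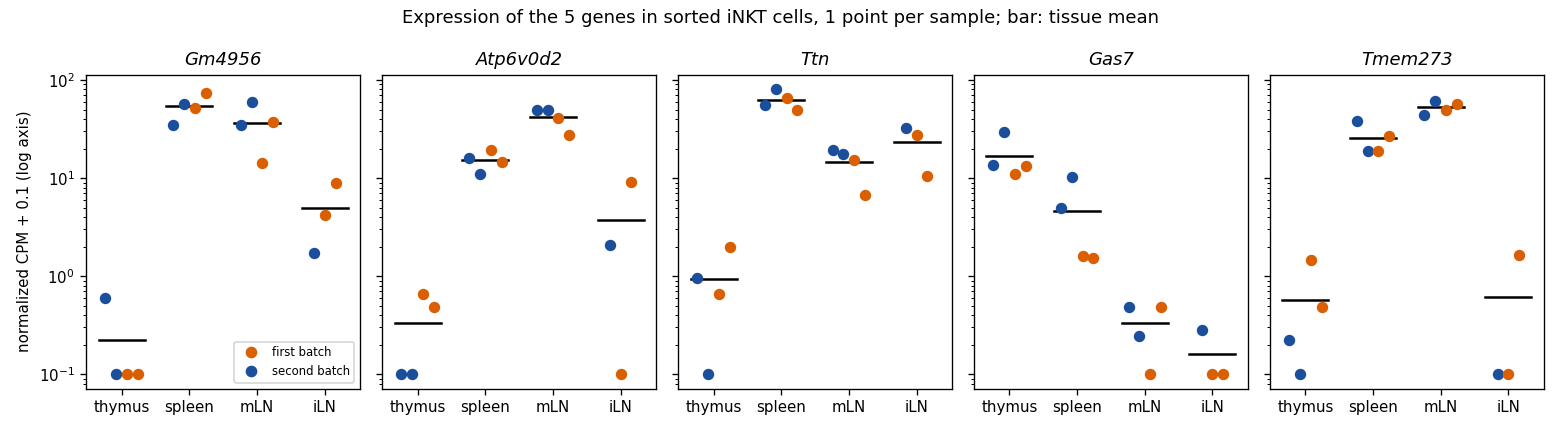
Normalized CPM plus 0.1 on a log axis for the 5 genes, with 1 point per sample coloured by batch and a bar at the tissue mean. Points at 0.1 are samples with no counts. Gm4956, Atp6v0d2, Ttn and Tmem273 are near the floor in thymus, and Gas7 is near it in both lymph nodes.

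Gas7 ran the opposite way, with its highest level in thymus, less in spleen and almost nothing in either lymph node. In thymus it was 13.5, 29.4, 11.0 and 13.3 CPM in replicates 1 to 4. In spleen it was 4.84 and 10.2 CPM in the Second batch and 1.495 and 1.42 CPM in the First, so that both samples of the Second batch lay above both of the First. In mLN it was 0.389, 0.145, 0 and 0.385 CPM, from 6 counts in all, and in iLN 0.179, 0 and 0 CPM, from 1 count. Thymus lay above spleen in every sample, if by little between the lowest thymus and the highest spleen value, and every spleen sample lay above every mLN sample. The mLN and iLN samples overlapped at or under the floor of detection.

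The fitted log2 fold change of Gas7 against spleen was -5.40 (SE 1.08) in iLN, the contrast that picked it, -3.94 (SE 0.80) in mLN and 2.19 (SE 0.66) in thymus. With 1 iLN count, the pooled spleen level was 76.4 times that of iLN with a wide counting interval of 13.5 to 3040. The fitted iLN value was -6.68 without iLN replicate 2, which held that count, and -2.27 by limma on log2(TPM + 0.1). In mLN against thymus, whose samples were not in the contrast that picked it, Gas7 fell by 6.13 on the log2 scale (SE 0.83, edgeR adjusted p = 1.57e-04). Its passing of the filter on low counts rested on thymus, its high group in this comparison, so the p-value is not free of that selection. Calls in this comparison numbered 217 of 13600 genes, 1.6%. Within the Second batch the means were 21.4 CPM in thymus and 0.267 in mLN, and within the First batch 12.1 and 0.193, so the gap was present in both.

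Tmem273 was highest in mLN, intermediate in spleen and near 0 in both iLN and thymus. In mLN it was 44.3, 61.5, 48.9 and 56.4 CPM in replicates 1 to 4, and in spleen 38.1, 18.6, 18.9 and 27.0 CPM. In iLN replicates 2 to 4 it was 0, 0 and 1.54 CPM, with all 9 counts in replicate 4, and in thymus it was 0.123, 0, 1.38 and 0.379 CPM, from 8 counts. Every mLN sample lay above every spleen sample and every spleen sample above every iLN sample, while iLN and thymus overlapped. Mean TPM was 53.9 ± 9.82 in mLN, 26.5 ± 14.6 in spleen and 0.38 ± 0.480 in thymus (SD, n = 4 each), and 0.587 ± 1.02 in iLN (n = 3).

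Against spleen, the fitted log2 fold change of Tmem273 was -5.54 (SE 0.78) in iLN, -5.79 (SE 0.73) in thymus and 1.02 (SE 0.50) in mLN. Without iLN replicate 4 the iLN value was -10.17, again a value that depends on the prior count. The pooled spleen level was 46.9 times that of iLN (95% interval 24.6 to 103) and 64.2 times that of thymus (32.4 to 149). In mLN against thymus Tmem273 rose by 6.81 on the log2 scale (SE 0.74, edgeR adjusted p = 1.60e-05), a pooled ratio of 121 (61.1 to 280). The 2 lymph nodes, prepared alike, thus stood at opposite ends for this gene, with a pooled mLN level 88.3 times that of iLN (46.4 to 194), given without a test because iLN was used to pick it.

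**Figure D3:**
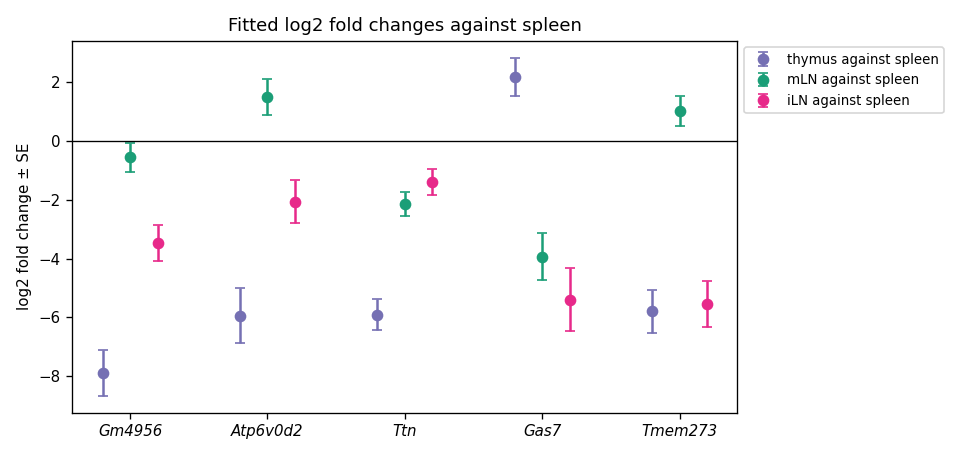
Fitted log2 fold changes of the 5 genes against spleen in thymus, mLN and iLN, with error bars of 1 SE. Thymus values run from -7.89 to -5.79 for Gm4956, Atp6v0d2, Ttn and Tmem273 and stand at 2.19 for Gas7, while mLN values are above 0 for Atp6v0d2 and Tmem273.

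Of the 5 genes, only Gas7 was not near 0 in thymus, and Gas7 and Tmem273 were the 2 with an iLN mean under 1 CPM. For Gm4956, Atp6v0d2 and Ttn every iLN sample was also below every spleen sample, and for Ttn every mLN sample was. These comparisons share the spleen samples on which the genes were picked. Across all genes, calls against spleen numbered 179 in thymus (1.32% of 13600), 89 in mLN (0.654%) and 211 in iLN (1.55%), and the median log2 fold change of all genes was -0.01, 0.00 and 0.01. Nothing is read from these shares for the 5 genes, which were picked on such contrasts.

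The other genes of the same families are given by their counts. Of 25 listed V-ATPase genes, 20 were tested and 1 was called in at least 1 of the 3 comparisons against spleen, where 2.71% of all tested genes were called. With so few genes tested per family a single call sets the share, and nothing is read from the counts. It was Atp6ap1, an accessory subunit, which was higher in iLN with a mean of 151 ± 14.7 CPM (n = 3) against 82.5 ± 9.03 in spleen (n = 4, log2 fold change 0.85, SE 0.18, edgeR adjusted p = 0.00908). That call was lost in 14 of 15 fits that each left out 1 library, the exception being the fit without mLN replicate 1, and when the replicate number took the place of batch in the fit. The median log2 fold change of the 20 genes was -0.16 in thymus, 0.08 in mLN and 0.04 in iLN. In mLN against thymus, where 1.6% of all genes were called, Tcirg1, named after its values were seen, was called lower in mLN. It had 6.61 ± 2.44 CPM in mLN and 24.6 ± 4.40 in thymus (n = 4 each, log2 fold change -1.94, SE 0.34, edgeR adjusted p = 0.00217). In mLN against spleen its log2 fold change was -1.59 (SE 0.33, edgeR adjusted p = 0.0176), not past the threshold.

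Of 49 listed sarcomere genes, 21 had any count and 8 were tested, and 1 was called against spleen. Nebl, a nebulin-related actin-binding protein, was lower in thymus with 3.72 ± 1.45 CPM against 24.0 ± 10.1 in spleen (n = 4 each, log2 fold change -2.74, SE 0.46, edgeR adjusted p = 0.00153). Without thymus replicate 1, no sarcomere gene was called. The median log2 fold change of the 8 genes was -0.67 in thymus, 0.33 in mLN and 0.16 in iLN. The other 28 listed genes of the muscle sarcomere had no count in any sample.

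Of 22 F-BAR genes, 17 were tested and 0 were called by edgeR in the 3 comparisons against spleen, while DESeq2 called 1. By edgeR 7 had an unadjusted p under 0.05 in at least 1 of them. The share of all genes at that level was not counted, so nothing is read from the 7. In iLN against mLN, where 0.471% of all tested genes were called, Srgap3, named after its values were seen, was called higher in iLN. It had 68.8 ± 40.8 CPM in iLN (n = 3) and 16.5 ± 5.02 in mLN (n = 4). The log2 fold change was 2.19 (SE 0.38, edgeR adjusted p = 0.00402). The most abundant were Fnbp1, a regulator of membrane curvature and actin assembly in endocytosis, and Arhgap45. Fnbp1 had 538 ± 38.8 CPM in thymus and 529 ± 97.9 in spleen (log2 fold change 0.03, SE 0.14). The median log2 fold change of the 17 genes was 0.09 in thymus, -0.24 in mLN and 0.04 in iLN.

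A list of 20 genes of circulating and effector lymphocytes was set beside the families. Of its 17 tested genes, 5 were called in at least 1 comparison against spleen, set against 2.71% of all genes, and 3 without spleen replicate 2. Ccl5, a chemokine of effector cells, fell by 2.68, 1.40 and 2.46 on the log2 scale in thymus, mLN and iLN (SE 0.26, 0.24 and 0.28, edgeR adjusted p = 2.49e-06, 0.00529 and 3.37e-05). Gzma, a granule protease, fell by 5.23 in iLN (SE 0.92, adjusted p = 0.00234). S1pr1, the receptor that guides lymphocyte egress, rose by 1.33 in iLN (SE 0.24, adjusted p = 0.00252). In thymus, Ly6c1 fell by 2.74 (SE 0.51, adjusted p = 0.00385) and Ly6c2, a close relative among the Ly6 surface proteins, rose by 1.71 (SE 0.26, adjusted p = 6.06e-04). These 2 genes are alike in sequence, so the division of reads between them is uncertain.

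**Figure D4:**
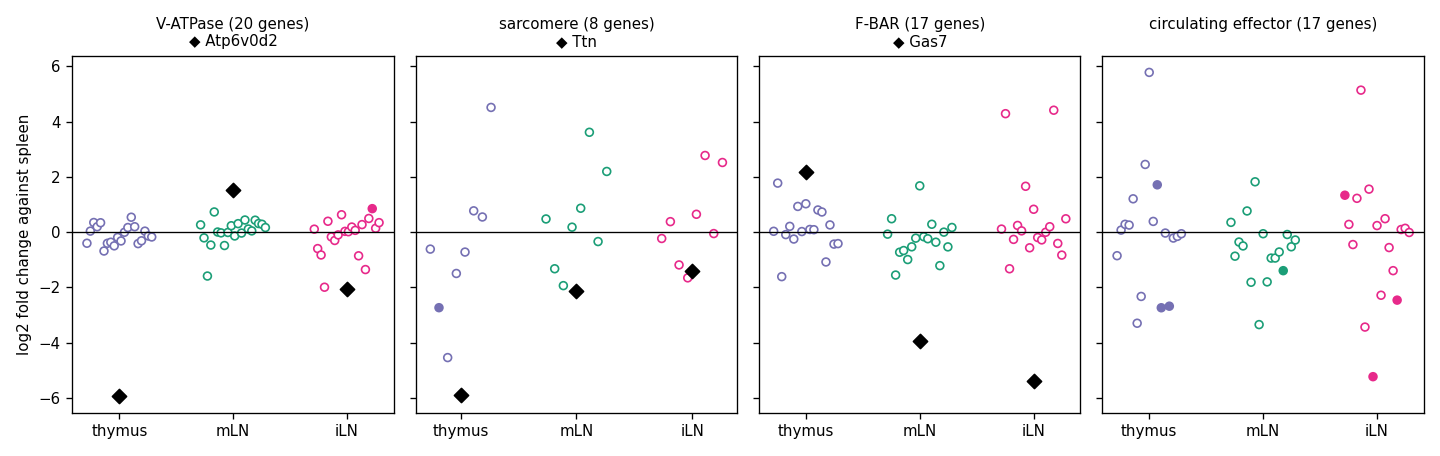
Log2 fold changes against spleen in thymus, mLN and iLN for the tested genes of the 4 lists, with filled circles for genes called by edgeR and open circles for the others. Black diamonds are Atp6v0d2, Ttn and Gas7, which are not counted in the lists. Atp6v0d2 in thymus, at -5.94, lies below the 20 V-ATPase genes, the lowest of which is Atp6v0d1 at -0.69.

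Of the 12 markers of iNKT or T cells, 4 were called in at least 1 comparison against spleen, set against 2.71% of all genes. In mLN 1 was higher and 1 lower, in iLN 2 were higher and 1 lower, and in thymus 0 were called. Markers of other cells also differed between the tissues. Summed over 20 macrophage markers, the level was 7.28 to 9.56 CPM in thymus, 20.3 to 76.8 in spleen, 18.7 to 23.8 in mLN and 8.43 to 17.6 in iLN. Of the 6 of these markers tested, 1 was called against spleen. It was Lyz2, a lysozyme gene, lower in thymus (log2 fold change -5.86, SE 1.22, edgeR adjusted p = 0.00997), where 1.32% of all genes were called. The 10 osteoclast markers summed to 126 to 149 CPM in thymus, 225 to 357 in mLN, 270 to 431 in iLN and 364 to 471 in spleen, where Itgb3 held most of the sum. Of the 5 tested, Itgb3, an integrin subunit, and Mmp9, a secreted protease, were called lower in thymus (log2 fold changes -1.49 and -5.80, edgeR adjusted p = 1.48e-04 and 3.69e-04), and 0 were called in mLN or iLN. Of the 10 B cell markers, the sum was highest in spleen at 212 to 438 CPM, mostly Ighm, and the 8 red cell markers reached 24.6 to 118 CPM in spleen and 0.832 to 2.61 in mLN. Of 5 tested red cell markers, 3 were called lower in mLN and 1 in iLN, and 0 of 8 tested B cell markers were called. The median log2 fold change of those 8 B cell markers against spleen was -2.28 in thymus, -2.06 in mLN and -1.70 in iLN. In each of these tissues 0 of the 8 were above 0. The 8 immature thymocyte markers summed to 22.3 to 80.9 CPM in thymus and 10.2 to 42.1 in spleen. In mLN the sum was 12.6 to 19.01 CPM and in iLN 11.97 to 14.4. Of the 5 tested, 1 was called higher in thymus and 0 in mLN or iLN. The 12 lymph node stroma markers summed to 27.5 to 56.9 CPM in thymus and 34.3 to 57.1 in spleen. In mLN their sum was 67.9 to 101.9 CPM and in iLN 66.02 to 76.1. Only 1 was tested, and it was not called. With so few genes tested per list, nothing is read from these counts. The part of these cells in the levels of the 5 genes was not tested.

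The counts were checked against the other annotated transcripts only. Reads from copies outside the annotation, or aligned with mismatches, were not tested. All 15 values of each gene were whole numbers within 0.005, so RSEM divided no fragment of theirs with another gene. No stretch of the length of a read was shared with another annotated transcript for Gm4956, Atp6v0d2, Gas7 or Tmem273, and for Ttn 13 of 120133 such stretches were shared, with the antisense gene Gm13938. Use of strand in counting is not given in the sources used here. Genes that overlap a member, which are Gm13938 at Ttn and Gm12301 and Glp2r at Gas7, had 0 counts in every sample.

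No gene next to the 5 on the chromosome was called. Of 13 adjoining or overlapping genes, 9 had no count in any sample and only Plekha3 and Ccdc141, on either side of Ttn, passed the filter. In thymus against spleen their log2 fold changes were -0.43 and -0.49 (edgeR adjusted p = 0.865 and 0.888), and 0 of these 2 genes had an unadjusted p under 0.05. Gm21909, the pseudogene beside Gm4956, had 25 counts over all samples, and Fam170b, beside Tmem273, had 1.

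Across the 15 samples the genes most like each member were found by Pearson's r of log2 CPM, given here as a description because samples of a tissue share its level and because the members were picked on some of these samples. By Spearman's rank correlation in place of r, several of these genes ranked far lower, such as Tnfrsf25 for Ttn (0.736, rank 68) and P2rx7 for Tmem273 (0.760, rank 44), while Tmem273 stayed first for Atp6v0d2 (0.927). For Gm4956 they were P2rx7, the ATP-gated ion channel of T cells (r = 0.962), the pseudogene Art2a-ps (0.958) and Art2b (0.947), which encodes a surface ADP-ribosyltransferase that modifies P2rx7. P2rx7 averaged 310 CPM in spleen, 323 in mLN, 47.3 in iLN and 14.7 in thymus, the same order as Gm4956 but for spleen and mLN. Art2b averaged 398, 462, 74.2 and 28.96 CPM. For Tmem273 and Atp6v0d2 the gene most alike was the other of the pair (r = 0.933), ahead of P2rx7 (0.927) and Gm35363 (0.919) for Tmem273 and of Dtx4, a Notch pathway ubiquitin ligase (0.924), and Tspan13, a tetraspanin (0.918), for Atp6v0d2. Dtx4 averaged 30.9 CPM in spleen, 89.3 in mLN, 12.4 in iLN and 8.86 in thymus.

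Ttn was most like Tnfrsf25, a TNF receptor family member of T cells also called DR3 (r = 0.913), Rbl2, a pocket protein of the retinoblastoma family (0.896), and Gm43982 (0.894). Rbl2 ranged from 240 CPM in thymus to 588 in spleen, and Tnfrsf25 from 2.40 in thymus to 22.9 in spleen. Gas7 was most like Klrb1c, the gene of the NK1.1 marker (0.937), Dennd4a, a regulator of Rab GTPases (0.932), and Il12rb2, a subunit of the interleukin 12 receptor (0.924). Klrb1c averaged 482 CPM in thymus, 313 in spleen, 173 in mLN and 163 in iLN, the same order as Gas7 over a much smaller range.

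**Figure D5:**
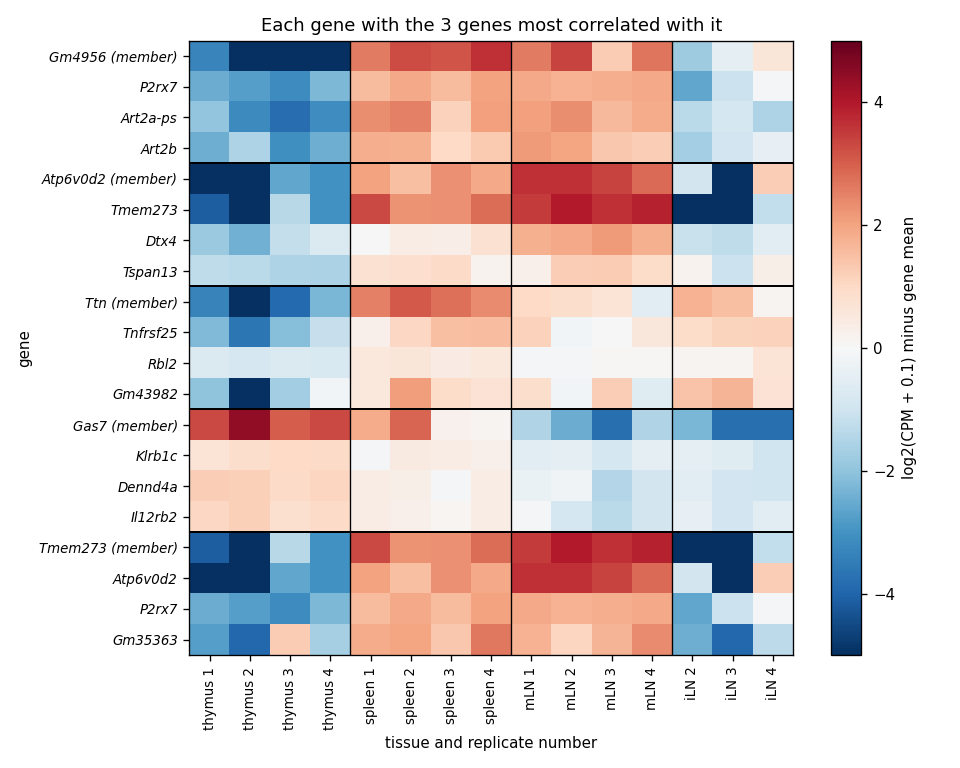
Log2(CPM + 0.1) minus the gene's mean over 15 samples, for each of the 5 genes and the 3 genes most correlated with it. The blocks of Gm4956, Atp6v0d2 and Tmem273 are mostly high in spleen and mLN and low in thymus and iLN. Exceptions include Tspan13 in iLN replicates 2 and 4 (35.9 and 39.3 CPM) and Gm35363 in thymus replicate 3 (3.58 CPM). The block of Gas7 is high in thymus, and iLN replicate 4 is nearest to mLN among iLN samples for Gm4956, Atp6v0d2 and Tmem273.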

How the data were processed

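Per the labels and methods, the authors trimmed reads with cutadapt 1.7.1 and ran RSEM 1.2.31 with Bowtie2 2.2.9 on GRCm38. The deposited values are expected counts, in which RSEM estimates how many fragments each gene gave. The deposited TPM values of the authors divide these by effective length and scale each sample to the same sum. FPKM values were not used. Of 48795 gene identifiers, 48349 matched a symbol.

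Expected counts were rounded, filtered with filterByExpr and fitted with edgeR 4.0.16 (R 4.3.3, limma 3.58.1), TMM normalization (factors 0.755 to 1.18) and the robust quasi-likelihood test, with tissue and batch as factors. Genes were called at an adjusted p under 0.01 and a fold change over 1.5. SE of a log2 fold change is its size divided by the root of F. The scripts were tested on simulated data.

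The members and gene lists were chosen with earlier results of these data known. Named genes are the 5 members, their neighbours, Atp6v0d1, the 3 genes most correlated with each member (prior count 2), and up to 4 called genes with the largest change per list (S1pr1 was added after its values were seen), or the 2 most abundant where none was called. Of the called marker genes, Itgb3, Mmp9 and Lyz2 were named after their values were seen. The labels call the samples biological replicates without saying whether each is 1 animal. Replicates of a tissue differed by a chi-squared statistic of 7.21 to 213 per degree of freedom. Intervals and floors cover counting error only. Alternatives were DESeq2 1.42.0, RLE size factors, no filter, no batch term, replicate number as a block, only the 2 tissues compared, limma on log2(TPM + 0.1), leaving out each library and, for correlations, Spearman's rank correlation and removal of the batch difference. Figures were made with matplotlib (Python 3.11.15).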

Additional observations from a re-analysis of the deposited data

Results flagged for a closer look

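In groups of 4 samples, 2 of 15 tested groups held a sample whose gap to its nearest neighbour exceeded the 95% limit of Dixon's test for the range of the group. Chance flags about 1 in 20 groups, and groups with 3 zeros always pass the limit. Gm4956 in thymus replicate 1 stood at 0.494 CPM, from 4 counts, with 0 in the other 3 thymus samples. Gas7 in thymus replicate 2, the library with the fewest counts, stood at 29.4 CPM, from 40 counts, above 11.0 to 13.5 CPM in the other 3. Gas7 in mLN against thymus stayed past the threshold when each library was left out in turn, thymus replicate 2 included.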

How the results depend on the processing

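For the 5 tests of single genes, no alternative reversed a direction. Gas7 and Tmem273 in mLN against thymus kept their calls under all 15 alternatives, with log2 fold changes of -6.87 to -4.39 and 6.29 to 7.86, and Ttn in iLN against mLN stayed uncalled under all 14. Gm4956 in iLN against mLN was called by DESeq2 (-2.89) and with no filter (-2.93), and ranged from -3.70 to -2.27 when a library was left out. Atp6v0d2 in that comparison was called by DESeq2 (-3.64) and with no filter (-3.58), and ranged from -5.26 to -3.07. All 218 alternative values of the fold changes against spleen kept their sign. The number of genes called depended on the tool. In thymus, mLN and iLN against spleen it was 404, 266 and 588 by DESeq2, 393, 273 and 544 with no filter, 313, 17 and 86 in fits of the 2 tissues alone and 86, 11 and 59 by limma, and with no batch term it was 29 in mLN and 129 in iLN. In iLN against mLN it was 307, 279, 20 and 27 under these 4 settings and 40 with no batch term, and in mLN against thymus 426 by DESeq2, 435 with no filter and 98 by limma. Leaving out a library gave 114 to 147, 24 to 59 and 108 to 170 calls against spleen and 125 to 180 in mLN against thymus. V-ATPase calls numbered 3 by DESeq2, 0 with no batch term, in the 2 tissues alone and by limma, and 0 to 1 without a library. Sarcomere calls numbered 2 by DESeq2, with no filter and in the 2 tissues alone, 0 by limma, and 0 to 2 without a library. F-BAR calls numbered 1 by DESeq2, 2 with no filter, and 0 to 1 without a library. Circulating effector calls numbered 8 by DESeq2, 10 with no filter, 3 with no batch term, and 3 to 6 without a library. The cause was not tested.

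With the replicate block in place of batch, Gm4956 was -2.96 (edgeR adjusted p = 0.0263) and Atp6v0d2 -3.79 (adjusted p = 0.0425) in iLN against mLN, V-ATPase calls fell to 0, and 174, 70 and 175 genes were called against spleen. Deviations of samples of the same number correlated over 0.1 in 14 of 21 pairs, against 11 of 21 pairs of the same batch with another number. These correlations cannot decide whether the samples were paired. The labels give same-numbered samples the same unit name without saying whether it is an animal. For T cell receptor clone frequencies from its RNA sequencing, the paper used a paired t-test between tissues. In the main fit the numbers were not taken to pair the samples. Near 0, depth limits the values, and a thymus level under 2.21 CPM in replicate 2 was not detectable.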
